A study of Mus musculus with 2 samples.

Results

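Neurons that carried transcripts of *Lhx6* together with *Nkx2-1* or *Lhx8* were examined in single-cell RNA sequencing of mouse cerebral cortex at embryonic day 16.5. A cell was a member when it held at least 1 unique molecular identifier (UMI, a tag that marks 1 captured RNA molecule) of *Gad1* or *Gad2*, at least 1 of *Nkx2-1* or *Lhx8* and at least 1 of *Lhx6*. It had to hold none of *Neurod6*, *Mki67* and *Top2a* and at most 1 of *Sst*. Of 16213 cells that passed the filters (1500 to 60000 UMIs and under 10% mitochondrial UMIs), 132 were members. They were chosen by measured values, so the levels of these 9 genes are a description and are not tested.

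The data came from 2 libraries of the WT group, which are controls of an Eomes-Cre line and carry the labels EomesDot and E16.5. There was no mutant or treated group, and the labels do not say whether a library held 1 embryo or several. The study examined what the DNA methyltransferase DNMT1 does in the development of somatostatin-positive (SST+) cortical interneurons. Single-cell data served it to predict signals from these interneurons to cortical progenitors. The question addressed here is what sets the *Nkx2-1* or *Lhx8* neurons apart from other GABAergic neurons of the same tissue.

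The medial ganglionic eminence (MGE) is a transient zone of the ventral forebrain that generates cortical and striatal interneurons and neurons of the globus pallidus and septum. Its progenitors express the homeodomain factor NKX2-1, which turns on *Lhx6*. Interneurons bound for the cortex shut *Nkx2-1* off after their last division, keep *Lhx6* and switch on *Maf* and *Mef2c*, whereas many interneurons of the striatum and neurons of the pallidum keep *Nkx2-1*. The LIM-homeodomain factor LHX8 acts beside it and is known for its part in making cholinergic neurons of the basal forebrain. Eph receptors and ephrins, among them EPHA4, steer such cells away from or along the routes to cortex and striatum.

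Replicate 1 held 74 members among 5966 cells, which is 1.24% with a 95% Wilson interval of 0.989 to 1.55. Replicate 2 held 58 among 10247 cells, which is 0.566% with an interval of 0.438 to 0.731. The share was thus higher in replicate 1 beyond counting error, which is the only error these intervals cover. The libraries listed 9049 and 13556 barcodes with 46398156 and 64324236 UMIs, and 65.9% and 75.6% of the barcodes passed the filters. They shared 40 barcodes, and none of the members carried a barcode that was a kept cell of the other library. A member held between 1904 and 14486 UMIs in replicate 1, with a median of 5593, and between 1673 and 21871 in replicate 2, with a median of 4917. Summed over the members, the depth was 423586 and 321666 UMIs, and levels are given below as counts per 1000000 UMIs of that sum (CPM), first for replicate 1 and then for replicate 2.

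Most members held only a few molecules of the factors that chose them. In replicate 1, 36 members held *Nkx2-1* alone, 19 *Lhx8* alone and 19 both. In replicate 2 the numbers were 28, 14 and 16. A single UMI of either gene was all that qualified 30 and 23 members, while 27 and 21 members held 3 or more. The highest count in a member was 4 and 7 UMIs for *Nkx2-1* and 7 and 10 UMIs for *Lhx8*. Just outside the rule lay 8 and 5 cells that met it apart from 2 or more *Sst* UMIs, 16 and 21 that held a *Neurod6* UMI, 9 and 22 that held *Mki67* or *Top2a*, and 3 and 7 without *Gad1* or *Gad2*. Inside it, 9 and 5 members held the 1 *Sst* UMI that was allowed.

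Free RNA in the droplets can give a UMI to a cell that does not express a gene, so the same genes were counted in excitatory neurons (at least 2 *Neurod6* UMIs, no *Mki67* or *Top2a*, and any count of the other rule genes). There, 1.07% and 1.31% of 2327 and 3740 cells held a UMI of *Nkx2-1* or *Lhx8*, at median depths of 7478 and 6219.5 UMIs. Among Lhx6-positive GABAergic neurons the share was 24.4% of 303 and 15.1% of 384 cells, at lower depth. An *Lhx6* UMI was found in 3.39% and 2.65% of the excitatory neurons, and a *Gad1* or *Gad2* UMI in 12.4% and 13.3%. Of the members, 8 and 10 held a single UMI of *Gad1* and *Gad2* together.

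The members' nearest neighbours by the rule were the *Lhx6* neurons without *Nkx2-1* or *Lhx8*, called *Lhx6* neurons below, which met every other condition. There were 229 and 326 of them. Their level of *Lhx6* was 413 and 384 CPM, against 406 and 361 CPM in the members. The other groups compared were *Sst* neurons (at least 2 *Sst* UMIs and *Lhx6*, 39 and 44 cells, of any *Nkx2-1* or *Lhx8* level) and GABAergic neurons with at least 2 UMIs of *Foxp1* and *Ebf1* together, at most 1 of *Adarb2*, *Prox1* and *Htr3a* together and none of *Lhx6*, *Nkx2-1* or *Lhx8* (299 and 463 cells), where *Foxp1* and *Ebf1* mark the striatal projection lineage. UMIs were summed per library and group, and the sums went into edgeR's quasi-likelihood test, where a block for each library pairs the groups that came from it. A gene called higher or lower has a Benjamini-Hochberg adjusted p under 0.05 over all genes tested, and each log2 fold change is followed by ± its standard error (SE). With n = 2 libraries and sums over cells, a lower level cannot tell fewer expressing cells from less RNA in each. The 3 comparisons share the members' own sums.

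Against the *Lhx6* neurons, the members held more of *Sfta3-ps*, a transcript next to *Nkx2-1*, and of *Pde1a*, *Robo1* and *Efna5*, and less of *Maf*, *Mef2c*, *Zeb2*, *Ackr3* and *Gria1*. Of 15413 genes tested, 192 were higher (1.25%) and 249 were lower (1.62%). Counts of called list genes in this comparison are to be read beside these shares. The median log2 fold change of all genes was -0.08. The members were sequenced more deeply per cell than the *Lhx6* neurons (medians of 5593 and 4917 against 3232 and 3616.5 UMIs) and had fewer mitochondrial UMIs (4.57% and 4.22% against 6.73% and 4.67%). Among cells of 3000 to 15000 UMIs, 411 genes were called, 350 of them also in the full comparison. Restriction to cells under 5% mitochondrial UMIs, which left 44 and 36 members, gave 265 calls, of which 225 were shared.

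**Figure D1:**
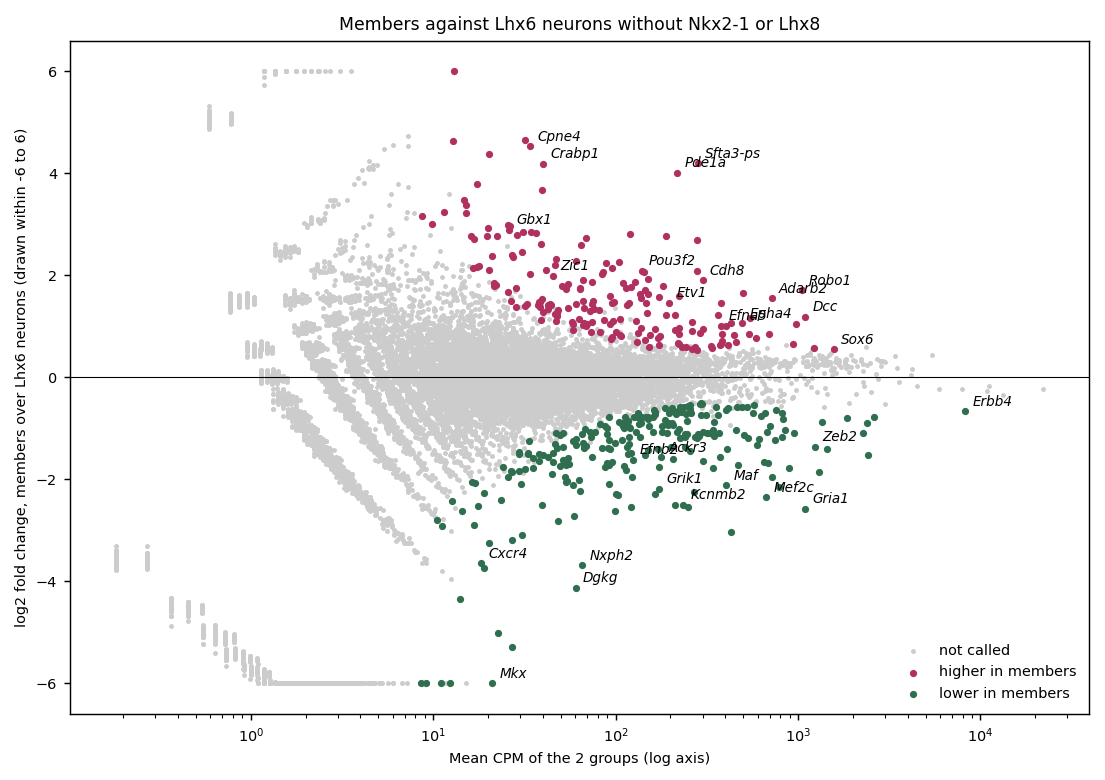
Each point is 1 of the 15413 genes tested, with the mean CPM of the 2 groups on a log axis and the log2 fold change of members over *Lhx6* neurons, drawn within -6 to 6; red and green points are the 192 higher and 249 lower genes. *Sfta3-ps* and *Pde1a* stand out among the higher genes at high level, and *Maf*, *Mef2c* and *Gria1* among the lower ones.

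The clearest difference lay at the *Nkx2-1* locus itself. *Sfta3-ps*, a long non-coding RNA, was at 517 and 560 CPM in the members and at 16.2 and 35.9 CPM in the *Lhx6* neurons, a log2 fold change of 4.20 ± 0.24 (adjusted p = 3.5e-14). Both libraries of the members lay far above both of the *Lhx6* neurons. It lies at chr12:56490428-56529420 (GRCm38, the build named mm10), 2514 bases from *Nkx2-1* at chr12:56531935-56536908, so it is not an independent readout of another locus. Its UMIs were found in 47 of 74 and 37 of 58 members. In excitatory neurons gated to hold none of the rule genes *Sfta3-ps* was at 0.126 and 0.142 CPM, and in GABAergic neurons with *Nkx2-1* or *Lhx8* but no *Lhx6* at 430 and 371 CPM.

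Other leading genes came from fewer cells. *Pde1a*, a calmodulin-dependent phosphodiesterase that breaks down cyclic nucleotides, was at 430 and 395 CPM against 29.2 and 20.5 (log2 fold change 4.01 ± 0.38, adjusted p = 3.5e-09), from 22 and 15 members. *Cpne4*, a calcium-dependent membrane-binding copine, was at 56.7 and 74.6 CPM against 2.16 and 2.93 (4.53 ± 0.54), from 7 members in each library. Of its UMIs in the members, 29.2% came from 1 cell. *Serpine2*, an inhibitor of extracellular serine proteases, was at 30.7 and 46.6 CPM against 1.08 and 2.20 (4.39 ± 0.68). For each of these genes, both libraries of the members exceeded both of the *Lhx6* neurons by more than 10-fold.

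Some of the largest changes rested on single cells. *Crabp1*, a retinoic acid binding protein that marks a class of striatal interneurons, was at 94.4 and 59.1 CPM in the members against 0 and 7.32 (4.19 ± 0.64, adjusted p = 3.3e-05). Its UMIs came from 5 and 4 members, and 1 cell held 39% of them. *Ndst4*, a heparan sulphate modifying enzyme, was at 118 and 6.22 CPM against 1.08 and 2.93 (4.66 ± 0.92), and 1 cell held 42.3% of its UMIs. The non-coding *4732419C18Rik* (28.3 and 21.8 CPM) was found in 3 members in all. *Cdh18* (30.7 and 34.2 CPM), *Gm11290* (85.0 and 62.2 CPM) and *Gm48091* (16.5 and 37.3 CPM) completed the 10 leading genes, each from 7 to 9 members. Of these, *4732419C18Rik* lost its call in cells under 5% mitochondrial UMIs (adjusted p = 0.60), and DESeq2 gave it no adjusted p. *Gm48091* lost it in cells under 5% mitochondrial UMIs (adjusted p = 0.060) and *Cdh18* when at least 2 UMIs of *Nkx2-1* and *Lhx8* were required (adjusted p = 0.068).

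*Maf*, *Mef2c* and *Zeb2*, factors of cortical interneurons, were lower but not absent. *Maf*, a transcription factor that *Lhx6* neurons switch on as they mature, was at 168 and 137 CPM in the members against 650 and 658 CPM (log2 fold change -2.12 ± 0.17, adjusted p = 9.0e-11). *Mef2c*, an activity-regulated factor of parvalbumin and somatostatin lineages, was at 182 and 270 CPM against 1004 and 1214 (-2.36 ± 0.22, adjusted p = 3.4e-09). *Zeb2*, a zinc-finger repressor by which MGE cells turn *Nkx2-1* down on the way to cortex, was at 817 and 597 CPM against 1809 and 1741 (-1.36 ± 0.19). No library of the members overlapped one of the *Lhx6* neurons in any of these genes. *Maf* UMIs were still found in 27 of 74 and 21 of 58 members.

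The list of 30 regulators of MGE and GABAergic neurons, of which 29 were tested, had 4 genes higher and 9 lower, with a median log2 fold change of -0.15. Next to the genes above, *Cux2* (187 and 124 CPM against 522 and 535), *Npas3* (286 and 317 against 1075 and 1200.4), *Meis2*, *Nr2f1* and *Npas1* were lower. *Pou3f2*, a POU factor of young neurons, was higher at 238 and 215 CPM against 51.9 and 51.3 (2.09 ± 0.21, adjusted p = 1.1e-08). *Etv1*, an ETS factor, was higher at 271 and 314 CPM against 85.4 and 117 (1.46 ± 0.17). *Sox6*, which MGE interneurons need for their positioning, was at 1985 and 1778 CPM against 1335 and 1179 (0.54 ± 0.16, adjusted p = 0.048). The calls of *Sox6* and of *Meis1* (1.08 ± 0.31) were lost under 4 alternatives each, among them the fit without the replicate block (adjusted p = 0.13 and 0.081). *Satb1*, a chromatin organizer of SST+ interneurons, was at 123 and 131 CPM against 201 and 213 and was not called (-0.75 ± 0.22, adjusted p = 0.056), though it passed under 5 alternatives.

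Markers of other MGE derivatives were mixed. Among pallidal and cholinergic genes, 7 of 13 were tested and 2 were higher. These were *Gbx1*, a homeobox gene of the ventral forebrain, at 42.5 and 49.7 CPM against 5.41 and 6.59 (2.90 ± 0.65, adjusted p = 0.0058), and *Zic1*, a zinc-finger factor of the septum and its surroundings, at 66.1 and 77.7 CPM against 25.9 and 11.7 (1.99 ± 0.42, adjusted p = 0.0032). *Gbx1* was found in 8 members of each library, and its call was lost in cells under 5% mitochondrial UMIs (2.02, adjusted p = 0.28). *Chat*, the enzyme that makes acetylcholine, was at 0 in all members (0 of 132 cells, which allows up to 2.27% of cells with a UMI and sets no limit on cells that express it at this depth), as were *Slc18a3*, *Ngfr* and *Ache*. *Gbx2* gave 0 and 3.11 CPM. *Isl1*, a LIM factor of cholinergic and striatal neurons, was at 7.08 and 12.4 CPM against 36.8 and 18.3 and was not called (-1.50 ± 0.66, adjusted p = 0.32). Neurons with *Nkx2-1* or *Lhx8* but no *Lhx6* held more *Zic1* (358 and 211 CPM) and *Isl1* (113 and 27.5 CPM) than the members, and this difference was not tested.

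Of 12 genes of striatal interneurons, 8 were tested. *Crabp1* and *Etv1* were higher and 1 gene was lower, with a median of 0.46. *Pvalb*, *Pthlh*, *Chrna3* and *Tac2* were at 0 in the members. The sum of the list was 895 and 777 CPM in the members and 648 and 542 CPM in the *Lhx6* neurons.

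**Figure D2:**
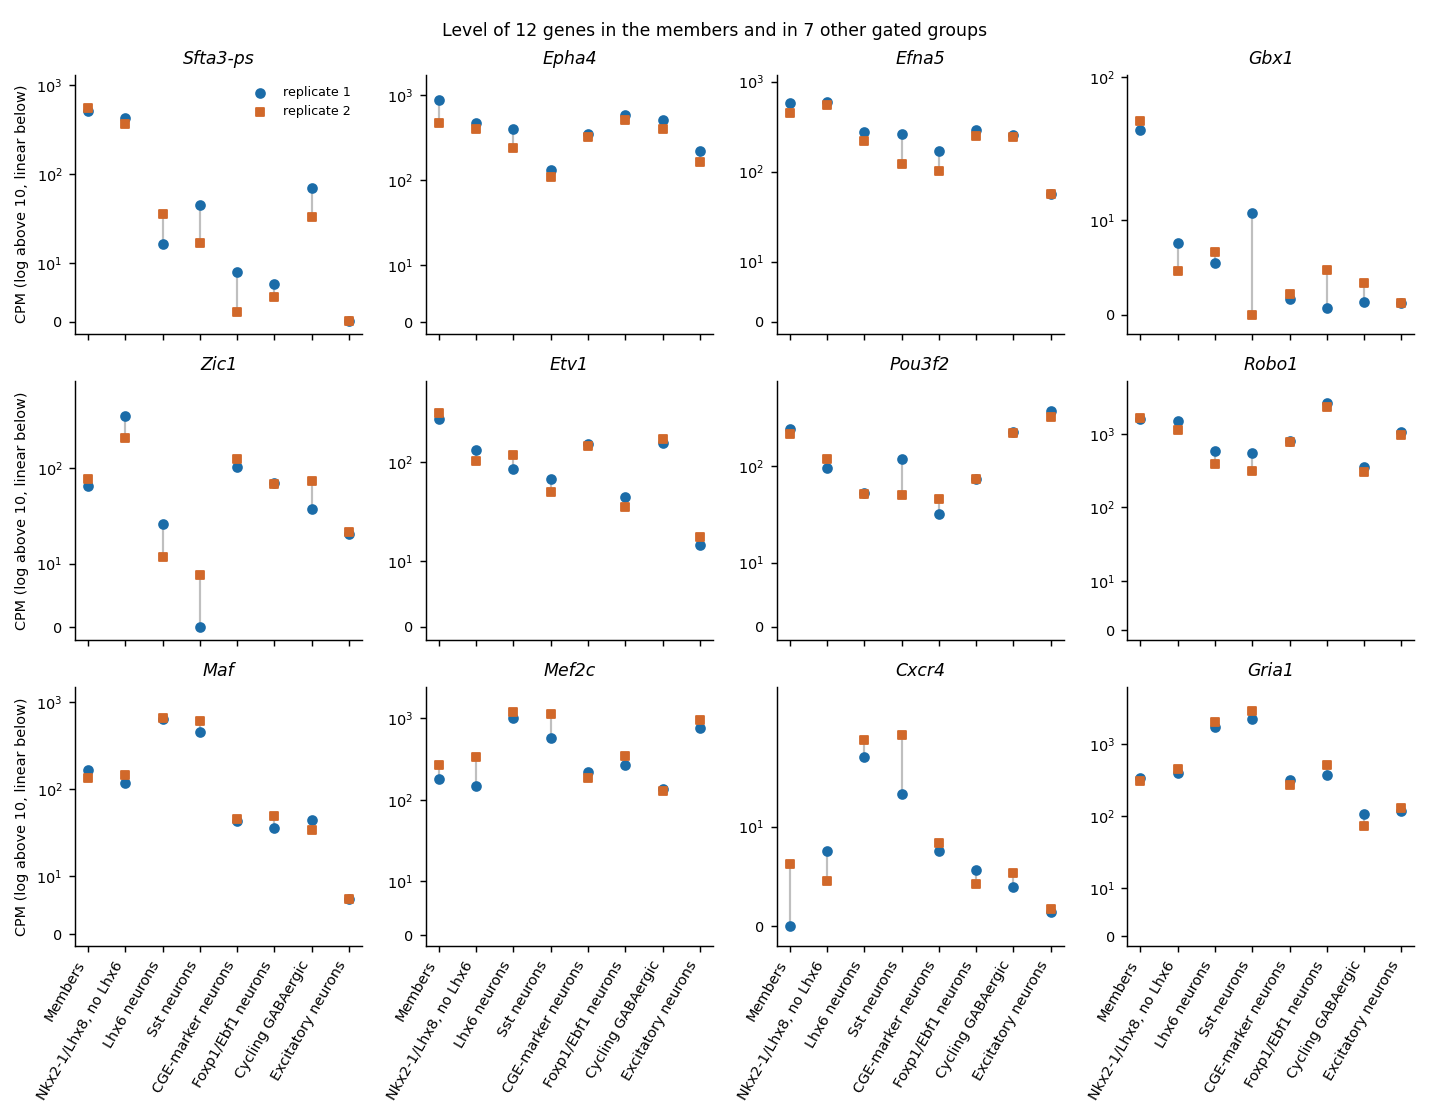
CPM of 12 genes (vertical axis, logarithmic above 10 and linear below) in the members and in 7 other gated groups, with 1 point per replicate. *Sfta3-ps* was highest in the members (517 and 560) and in the neurons with *Nkx2-1* or *Lhx8* but no *Lhx6* (430 and 371), and *Gbx1* was highest in the members (42.5 and 49.7).

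Guidance receptors differed in both directions. Of 22 ephrins and Eph receptors, 20 were tested, 4 were higher and 3 lower, with a median of 0.62 against -0.08 over all genes. *Epha4* was at 869 and 473 CPM against 401 and 238 (log2 fold change 1.05 ± 0.17, adjusted p = 6.5e-05), and it was called under every alternative fit, with values between 0.93 and 1.13. The lower library of the members thus exceeded the higher one of the *Lhx6* neurons. Its higher level in these cells was known when they were chosen and is not independent evidence. *Efna5*, an ephrin that is bound by EphA receptors such as EPHA4, moved with it, at 574 and 451 CPM against 277 and 220 (1.01 ± 0.16, adjusted p = 3.7e-05).

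The lower members of the family were *Epha5* (1374 and 1160 CPM against 3690 and 3433, log2 fold change -1.53 ± 0.17), *Epha3* (279 and 336 against 610 and 601) and the ephrin *Efnb2* (66.1 and 59.1 against 161 and 212, -1.62 ± 0.23). *Efnb3* was at 70.8 and 83.9 CPM against 44.3 and 35.2 (0.92 ± 0.26, adjusted p = 0.041), and 4 alternatives ended its call. *Epha6* was at 80.3 and 277 CPM against 51.9 and 66.6, 47.2% of its UMIs in the members came from 1 cell, and its direction turned among cells under 5% mitochondrial UMIs (-1.29).

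In the Slit and netrin list, 2 of 16 genes tested were higher and 1 was lower, with a median of 0.38. *Robo1*, a Slit receptor that steers tangentially migrating interneurons, was at 1582 and 1626 CPM against 586 and 388 (1.70 ± 0.18, adjusted p = 2.4e-08), with UMIs in 66 of 74 and 46 of 58 members. *Dcc*, a netrin receptor, was at 1620 and 1446 CPM against 710 and 598 (1.19 ± 0.18, adjusted p = 2.2e-05). *Unc5c*, another netrin receptor, was lower at 14.2 and 127 CPM against 163 and 160, a drop carried by replicate 1 (adjusted p = 0.016, 0.30 under DESeq2). Among 21 semaphorin, plexin and neuropilin genes tested, *Sema3c* and *Plxnc1* were higher and *Sema6a* was lower, with a median of -0.05. The call of *Sema3c* was lost under 3 alternatives and that of *Plxnc1* under 2.

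Of 19 genes in the list of chemokine, neuregulin and trophic signals, 15 were tested, with 2 higher and 4 lower and a median of -0.36. *Cxcr4*, the receptor for the chemokine CXCL12 that holds interneurons in their migratory streams, was at 0 and 6.22 CPM against 29.2 and 38.1 (-3.65 ± 0.79, adjusted p = 0.0037). Its UMIs were found in none of 74 and 2 of 58 members. *Ackr3*, which takes up CXCL12 beside it, was at 109 and 71.5 CPM against 304 and 227 (-1.57 ± 0.19, adjusted p = 9.6e-07). *Ntrk2*, the BDNF receptor, was at 137 and 183 CPM against 350 and 319 (-1.12 ± 0.16). *Erbb4*, the neuregulin receptor that guides MGE interneurons, was high in both groups, at 6971 and 6016 CPM against 10256 and 9791 (-0.66 ± 0.19, adjusted p = 0.044), and its call was lost under 3 alternatives, among them the fit without the replicate block (adjusted p = 0.14). *Egfr*, the epidermal growth factor receptor, was higher at 16.5 and 56.0 CPM from 6 members in all, and 2 alternatives ended its call. The remaining higher gene, *Nrg1*, lost its call under 5 alternatives (adjusted p from 0.085 to 0.35) and turned direction in cells under 5% mitochondrial UMIs. Its log2 difference was 1.70 without replicate 1 and 0.0035 without replicate 2.

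Adhesion genes moved in both directions. All 32 cadherins, contactins and related genes were tested, and 7 were higher and 3 lower, beside 1.25% and 1.62% of all genes, with a median of 0.23. *Cdh8*, a type II cadherin, was at 475 and 476 CPM against 143 and 106 (1.90 ± 0.20, adjusted p = 2.0e-08). *Pcdh11x* was at 203 and 146 CPM against 30.3 and 38.1 (2.26 ± 0.33), and *Cntnap5a* at 161 and 302 against 68.1 and 39.5 (2.06 ± 0.30). *Pcdh19* (18.9 and 24.9 CPM against 78.9 and 90.8) and *Cdh11* (87.3 and 40.4 against 196 and 163) were lower. The calls of *Cntn5*, *Cntnap2*, *Pcdh17* and *Cdh18* were lost in 1 to 3 alternatives each.

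Among synaptic organizers, 30 of 31 were tested, and 4 were higher and 4 lower. *Nxph2*, a secreted ligand of neurexins, was nearly lost, at 9.44 and 9.33 CPM against 96.2 and 147 (-3.69 ± 0.47, adjusted p = 1.5e-06), and *Nxph1* was at 1388 and 1567 CPM against 2946 and 3211 (-1.10 ± 0.19). *Dscam*, a homophilic adhesion molecule, was higher at 116 and 106 CPM against 22.7 and 13.9 (2.60 ± 0.42), and *Tenm1*, a teneurin, at 222 and 314 against 109 and 108 (1.23 ± 0.19). *Dscam* was found in 23 members, and 1 of them held 30.1% of its UMIs. *Nlgn1*, a postsynaptic neuroligin, was at 706 and 768 CPM against 576 and 295 (0.76 ± 0.21, adjusted p = 0.032), and 5 alternatives ended its call. *Nrxn3* was at 12191 and 11509 CPM against 14893 and 14324 and was not called (-0.35 ± 0.19, adjusted p = 0.48).

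Glutamate receptor genes moved in both directions. All 20 genes were tested, 4 were higher and 5 lower, with a median of -0.21. *Gria1*, an AMPA receptor subunit, was at 335 and 302 CPM against 1721 and 2012 (-2.58 ± 0.20, adjusted p = 9.0e-11). *Grm5*, a group I metabotropic receptor, was at 63.7 and 134 CPM against 371 and 513 (-2.26 ± 0.25), and *Grik1*, a kainate receptor subunit, at 68.5 and 56.0 against 295 and 271 (-2.19 ± 0.29). *Grin2b* (-1.08 ± 0.16) and *Gria4* (-0.88 ± 0.17) were lower as well. On the other side, the NMDA receptor subunit *Grin3a* was at 77.9 and 49.7 CPM against 10.8 and 7.32 (2.83 ± 0.43), and *Grm7*, a group III metabotropic receptor, at 205 and 171 against 67.0 and 43.9 (1.77 ± 0.22). *Grm8* was also higher, but lost its call in cells under 5% mitochondrial UMIs.

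Genes of GABA signalling and channels were called in both directions. Of 19 genes of GABA synthesis, transport and reception, 2 were higher and 2 lower. *Gabrg3*, a GABA-A receptor subunit, was lower at 63.7 and 109 CPM against 189 and 244 (-1.43 ± 0.23), and *Abat*, which breaks GABA down, was higher. *Abat* lost its call in cells under 5% mitochondrial UMIs (adjusted p = 0.47) and after removal of the highest doublet scores (adjusted p = 0.052). Of 40 ion channel genes tested, 3 were higher and 2 lower. *Kcnmb2*, an auxiliary subunit of BK potassium channels, was at 44.9 and 106 CPM against 337 and 453 (-2.50 ± 0.21, adjusted p = 1.8e-10), whereas each of the other 4 channel genes called lost its call under at least 1 alternative. None of the 11 genes of DNA methylation was called by edgeR, and their median was 0.15. *Dnmt1*, the maintenance methyltransferase, was at 49.6 and 43.5 CPM against 44.3 and 38.8 (0.15 ± 0.30, adjusted p = 0.90).

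**Figure D3:**
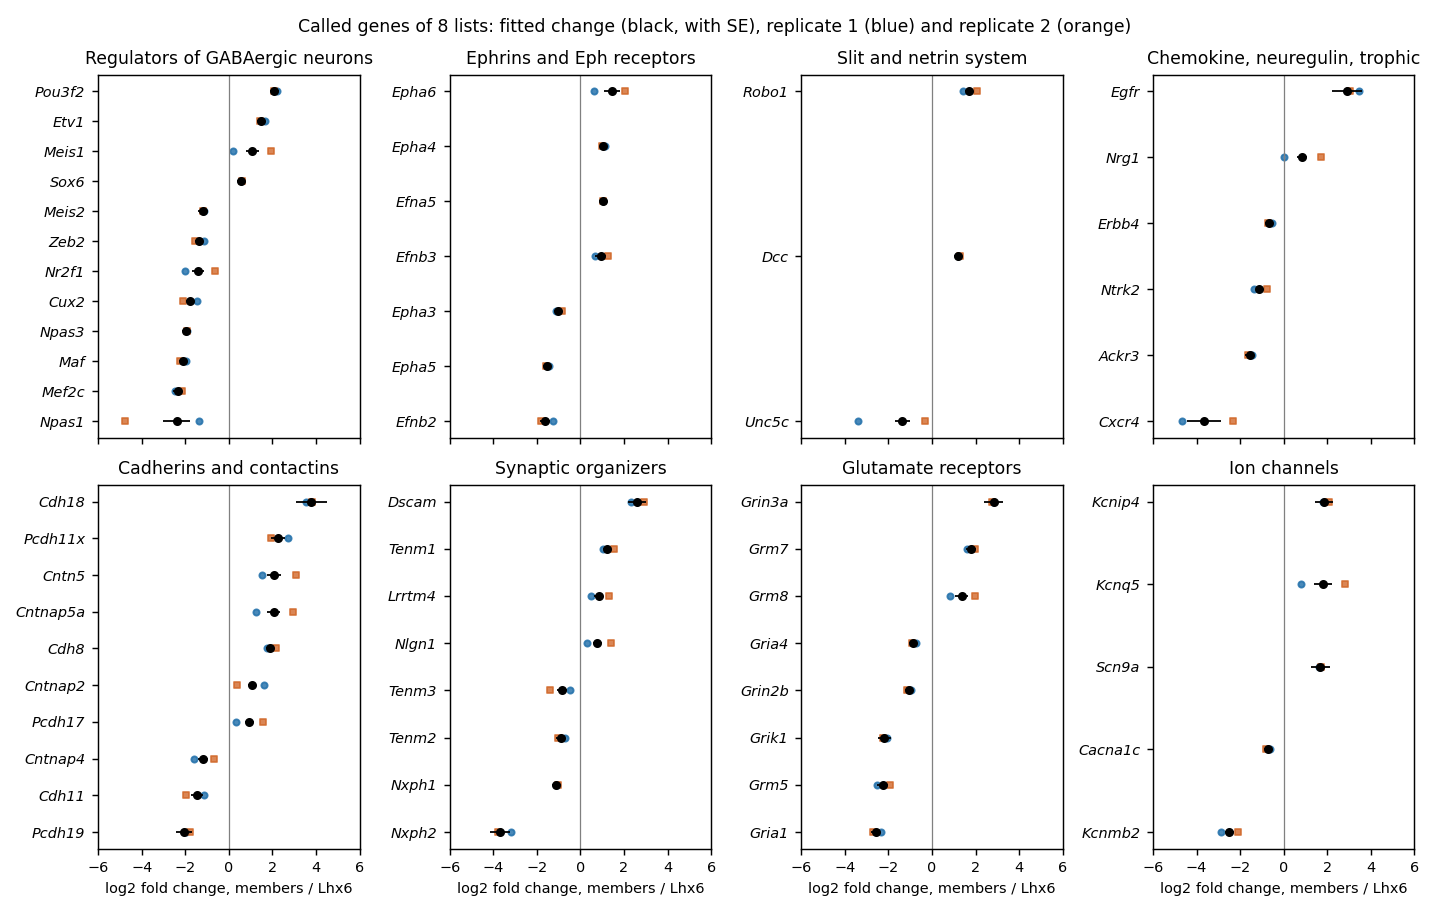
log2 fold change of members over *Lhx6* neurons for called genes of 8 lists, with the fitted value and its SE in black and the ratio within each replicate in blue and orange. *Maf*, *Mef2c*, *Npas3*, *Efna5*, *Dcc* and *Gria1* had near-equal values in both replicates, and *Npas1*, *Unc5c* and *Cxcr4* did not.

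Maturation and progenitor lists did not move one way. Of 20 maturation genes, *Gap43*, a growth cone protein, was higher at 489 and 544 CPM against 241 and 192 (1.22 ± 0.17), with *Syt4* and *Nefm*, and *Rbfox1*, a splicing regulator of neurons, was lower at 323 and 267 against 1288 and 1285 (-2.16 ± 0.21, adjusted p = 3.8e-09). Of *Nefm*, 71.2% of the members' UMIs came from 1 cell, and it lost its call in cells of 3000 to 15000 UMIs, while *Syt4* lost its own under 2 alternatives. Of 17 progenitor and early neuron genes, only *Ccnd2*, a cyclin of late progenitors, was called, at 269 and 149 CPM against 77.8 and 95.2 (1.25 ± 0.24). Of 16 Notch, Wnt and hedgehog genes tested, *Wnt7a* was lower at 18.9 and 6.22 CPM against 49.7 and 43.2 (-1.84 ± 0.44, adjusted p = 0.012), and its call was lost under 2 alternatives (adjusted p = 0.058 and 0.061). Among 15 neuropeptides and receptors tested, only *Cck* was called, at 0 in the members against 7.57 and 41.7 CPM.

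The other leading lower genes were at or near 0 in the members. *Mkx*, a homeobox gene, was at 0 in both libraries against 41.1 and 43.2 CPM, which is at least 10.5-fold lower, counted against a floor of 3 UMIs over the group. Its call was lost in cells under 5% mitochondrial UMIs (adjusted p = 0.15). *Dgkg*, a diacylglycerol kinase, was at 11.8 and 0 CPM against 106 and 124 (-4.13 ± 0.52, adjusted p = 1.2e-06), and the non-coding *Gm13986* at 2.36 and 0 against 41.1 and 46.9. *Thrb*, a thyroid hormone receptor (0 and 3.11 CPM against 16.2 and 36.6), and *Gm15655* (2.36 and 3.11 against 40.0 and 30.8) were also called, *Thrb* not by DESeq2 (adjusted p = 0.086). *Cck* was at least 6.94-fold lower by the same floor. *C1qa*, a microglial complement gene, and *Apod* had 68.2% and 52.3% of the *Lhx6* neurons' UMIs in 1 cell, and they lost their calls under 5 and 6 alternatives.

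Markers of other cell types were measured beside these results. Excitatory neuron genes summed to 33.1 and 106 CPM in the members, against 118 and 62.3 in the *Lhx6* neurons and 2421 and 2418 in excitatory neurons, and none of the 10 was called. Genes of striatal projection neurons summed to 59.0 and 71.5 CPM, against 359 and 206 in the *Lhx6* neurons, with *Drd1*, *Ppp1r1b* and *Tac1* at 0 and *Foxp2* called lower (-2.62 ± 0.37). Of 10 glial genes, 9 were tested and none was called. Their sum was 66.1 and 106 CPM against 87.6 and 101. The sum of 12 vascular, immune and blood genes was 2597 and 1352 CPM against 2090 and 4714, with *Rgs5*, *Pdgfrb* and *C1qa* at 0. In the members, 1 cell held 53.3% of the UMIs of the haemoglobin gene *Hbb-bs* and 1 cell held 62% of those of *Hba-a1*. Of 10 preoptic and hypothalamic genes, 8 were at 0.

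Genes of interneurons from the caudal ganglionic eminence (CGE), another source of cortical interneurons, were called in both directions, 2 higher and 1 lower of 7 tested. *Adarb2*, an RNA-binding protein of the adenosine deaminase family that marks CGE interneurons, was at 1187 and 992 CPM against 265 and 425 in the *Lhx6* neurons (1.55 ± 0.32, adjusted p = 0.0027), and *Prox1*, a homeobox factor of the same lineage, at 82.6 and 77.7 against 25.9 and 33.0 (1.36 ± 0.27, adjusted p = 0.0012). The list of 8 summed to 1357 and 1188 CPM in the members, 451 and 576 in the *Lhx6* neurons and 6265 and 5213 in neurons gated on CGE markers. *Vip* was at 0 and *Npas1* was called lower. In cells under 5% mitochondrial UMIs both lost their calls (*Adarb2* 0.82, adjusted p = 0.48, and *Prox1* 1.01, adjusted p = 0.24), and DESeq2 gave *Adarb2* an adjusted p of 0.32. The part of CGE-type cells in this was not tested. Removal of the highest doublet scores took out 3 and 6 members and left *Adarb2* and *Prox1* called.

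Among the members, *Adarb2* differed with the factor whose UMIs were found in them. A single UMI of the 2 factors together was all that 30 and 23 members held. A factor found alone can thus mean that the other was not captured. Members with *Lhx8* alone had 2325 and 1979 CPM, members with both factors 2198 and 1210 CPM, and members with *Nkx2-1* alone 191 and 237 CPM. The UMIs came from 8 of 19 and 5 of 14 members with *Lhx8* alone, from 12 of 19 and 5 of 16 with both, and from 4 of 36 and 4 of 28 with *Nkx2-1* alone. *Lhx8* alone exceeded *Nkx2-1* alone by 3.34 ± 0.38 on the log2 scale (adjusted p = 0.037). *Tenm3*, a teneurin that matches synaptic partners, was the only other gene called among 3131 tested (2 higher, 0.0639%, and 0 lower, 0%), at 563 and 232 CPM against 50.1 and 34.8 (3.21 ± 0.40, adjusted p = 0.041). It was found in 11 of 19 and 6 of 14 members with *Lhx8* alone, and no cell held more than 11.8% of their UMIs. Members with both factors had 75.1 and 34.2 CPM of *Tenm3*, which was not tested against the other classes.

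By contrast, *Tenm3* over all members was lower than in the *Lhx6* neurons (175 and 90.2 CPM against 242 and 239, -0.84 ± 0.23, adjusted p = 0.034), a call lost under DESeq2 (0.13) and without the replicate block (0.086). At an unadjusted p under 0.05, 172 genes were higher and 86 lower in members with *Lhx8* alone, out of few cells. DESeq2 called 15 genes, 14 higher and 1 lower. *Adarb2* lost its call when at least 2 UMIs of *Nkx2-1* and *Lhx8* were required (3.75, adjusted p = 0.40), a setting that left 14 members with *Lhx8* alone and 30 with *Nkx2-1* alone and called no gene.

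The promoters of these 2 genes are shown because they were the only ones called between the classes of members, and so were chosen after their values were seen. They were searched on both strands for TAATTA, the core bound by many LIM-homeodomain and other homeodomain proteins, and for CAAGTG, a core described for NKX2-1. TAATTA reads the same on both strands and does not overlap the other motif here. Sequences span a RefSeq transcript start (GRCm38.p6) and are given 5′ to 3′ on the gene's strand, with TAATTA in capitals. *Adarb2* is on the plus strand of chr13:8202616-8202915 and *Tenm3* on the minus strand of chr8:48674641-48674940, and both windows lie inside the span of their gene (chr13:8202526-8768762 and chr8:48225665-49522824).
Adarb2: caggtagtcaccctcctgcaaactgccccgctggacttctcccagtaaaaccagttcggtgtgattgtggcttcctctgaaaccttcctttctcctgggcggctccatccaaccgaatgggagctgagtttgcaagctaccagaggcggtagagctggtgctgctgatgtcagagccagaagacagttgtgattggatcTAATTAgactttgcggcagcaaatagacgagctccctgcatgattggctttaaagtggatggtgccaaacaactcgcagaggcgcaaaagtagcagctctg
Tenm3: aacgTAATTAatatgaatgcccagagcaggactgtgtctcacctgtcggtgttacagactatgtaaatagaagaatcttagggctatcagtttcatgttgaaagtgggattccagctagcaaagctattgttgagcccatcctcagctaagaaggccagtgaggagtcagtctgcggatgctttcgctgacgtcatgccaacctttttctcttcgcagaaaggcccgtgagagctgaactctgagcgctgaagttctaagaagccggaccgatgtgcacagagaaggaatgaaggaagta

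Each holds TAATTA once and neither holds CAAGTG. Among 27025 promoters of the same length, 1436 (5.31%) hold TAATTA and 3658 (13.5%) hold CAAGTG on either strand. The promoters of *Nkx2-1* and *Lhx8* hold neither. These matches are letters in a window, and no binding was measured.

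Other genes varied among the classes without a call. *Alcam*, an immunoglobulin-type adhesion molecule, was at 143 and 420 CPM with *Lhx8* alone against 22.8 and 27.9 with *Nkx2-1* alone (3.30 ± 0.47, adjusted p = 0.067), and *Cntn1*, a contactin, at 225 and 420 against 27.3 and 27.9 (3.47 ± 0.53, adjusted p = 0.083). *Nfix*, a nuclear factor of late-born neurons, was at 41.0 and 33.2 CPM against 196 and 230 (-2.45 ± 0.45, adjusted p = 0.12). *Zeb2* was at 379 and 276 CPM with *Lhx8* alone, 178 and 457 with both and 1321 and 884 with *Nkx2-1* alone (adjusted p = 0.32 for *Lhx8* alone against *Nkx2-1* alone). *Sfta3-ps* was lower in both libraries with *Lhx8* alone (318 and 354 CPM) than with *Nkx2-1* alone (592 and 571 CPM), and this was not called (adjusted p = 0.60). These genes were picked after their values were seen.

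**Figure D4:**
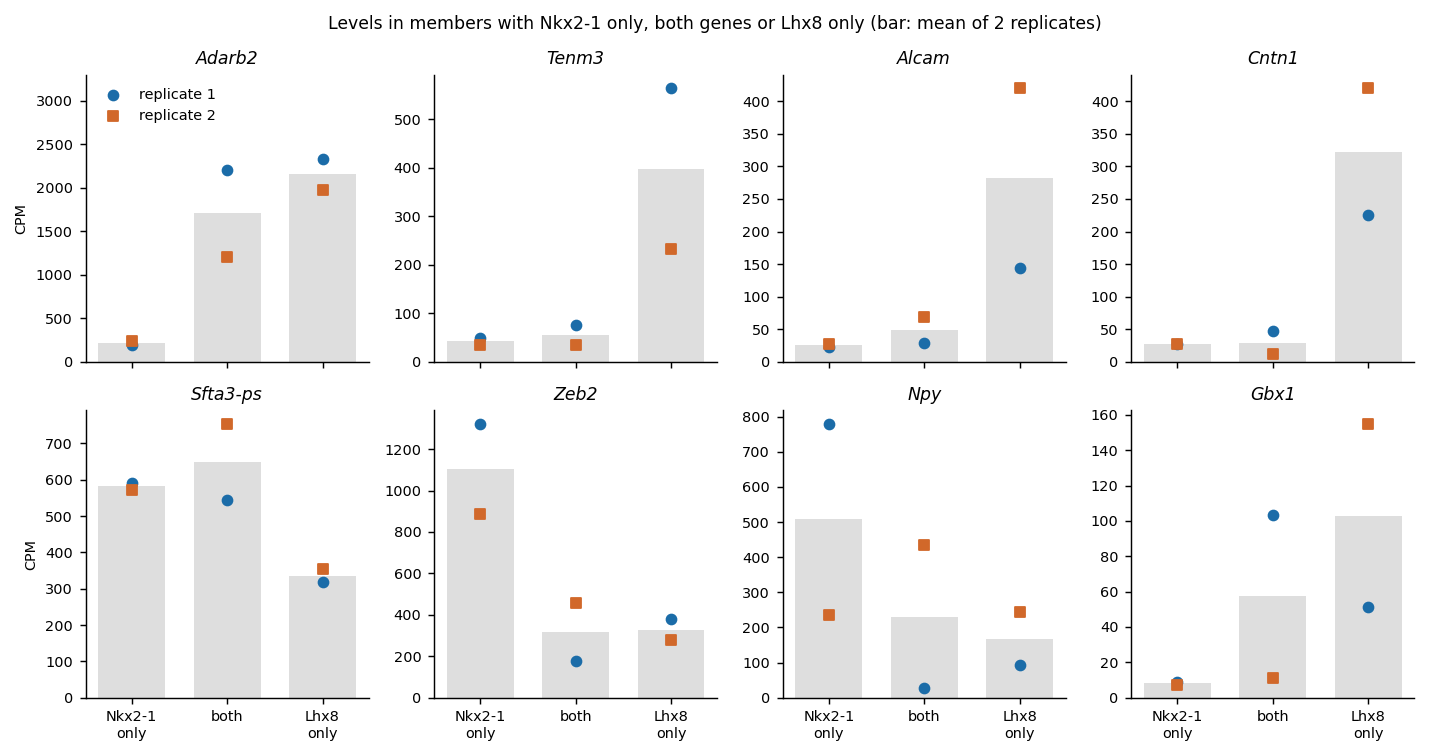
CPM of 8 genes in members that held *Nkx2-1* only, both factors or *Lhx8* only, with a point per replicate and a bar at their mean. *Adarb2* was low with *Nkx2-1* only (191 and 237 CPM) and high in the other classes, and *Tenm3* was high with *Lhx8* only.

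The number of *Nkx2-1* and *Lhx8* UMIs in a cell, which the rule used only as 0 or more, went with some genes and not with others. It also went with depth, since the median UMIs per cell were 4875, 5321 and 6389 in members with 1, 2 and 3 or more such UMIs in replicate 1 and 4003, 4966 and 5946 in replicate 2. The bins held 14 to 30 members each, so the values are a description. *Maf* fell from 303 to 96.4 and 81.5 CPM over these bins in replicate 1 and from 278 to 98.2 and 43.2 in replicate 2. *Ackr3* was at 189, 75.0 and 52.4 CPM in replicate 1, and at 108, 28.0 and 64.8 in replicate 2.

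*Efna5* rose from 505 to 611 and 617 CPM in replicate 1 and from 377 to 421 and 526 in replicate 2. *Pde1a* stood at 259, 386 and 611 CPM in replicate 1 and at 224, 56.1 and 706 in replicate 2. *Gbx1* was at 75.7 and 108 CPM in members with 3 or more UMIs and at 6.31 and 8.97 in those with 1, close to the 5.41 and 6.59 CPM of the *Lhx6* neurons. *Sfta3-ps* was already at 416 and 368 CPM in members with 1 UMI. For *Maf*, *Ackr3*, *Efna5*, *Pde1a*, *Gbx1*, *Sfta3-ps*, *Mef2c*, *Zeb2*, *Etv1* and *Erbb4*, members with a single UMI had a level between that of the *Lhx6* neurons and that of members with 3 or more, in both libraries. These genes were named after their values were seen. *Epha4* and *Sox6* did not follow this order in either library. Others that broke it in at least 1 library included *Satb1*, *Efnb2*, *Zic1*, *Nlgn1* and *Isl1*. *Epha4* was at 940, 889 and 792 CPM over the bins in replicate 1 and at 350, 925 and 338 in replicate 2, and *Sox6* at 2208, 2743 and 1368 and at 1758, 2215 and 1570. Between these bins the order could break, as for *Pde1a* in replicate 2 and for *Mef2c*, which was lowest in the bin of 2 UMIs, at 233, 21.4 and 221 CPM in replicate 1 and 350, 98.2 and 295 in replicate 2. When at least 2 UMIs were required, the log2 fold change of *Maf* was -3.18 instead of -2.12.

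**Figure D5:**
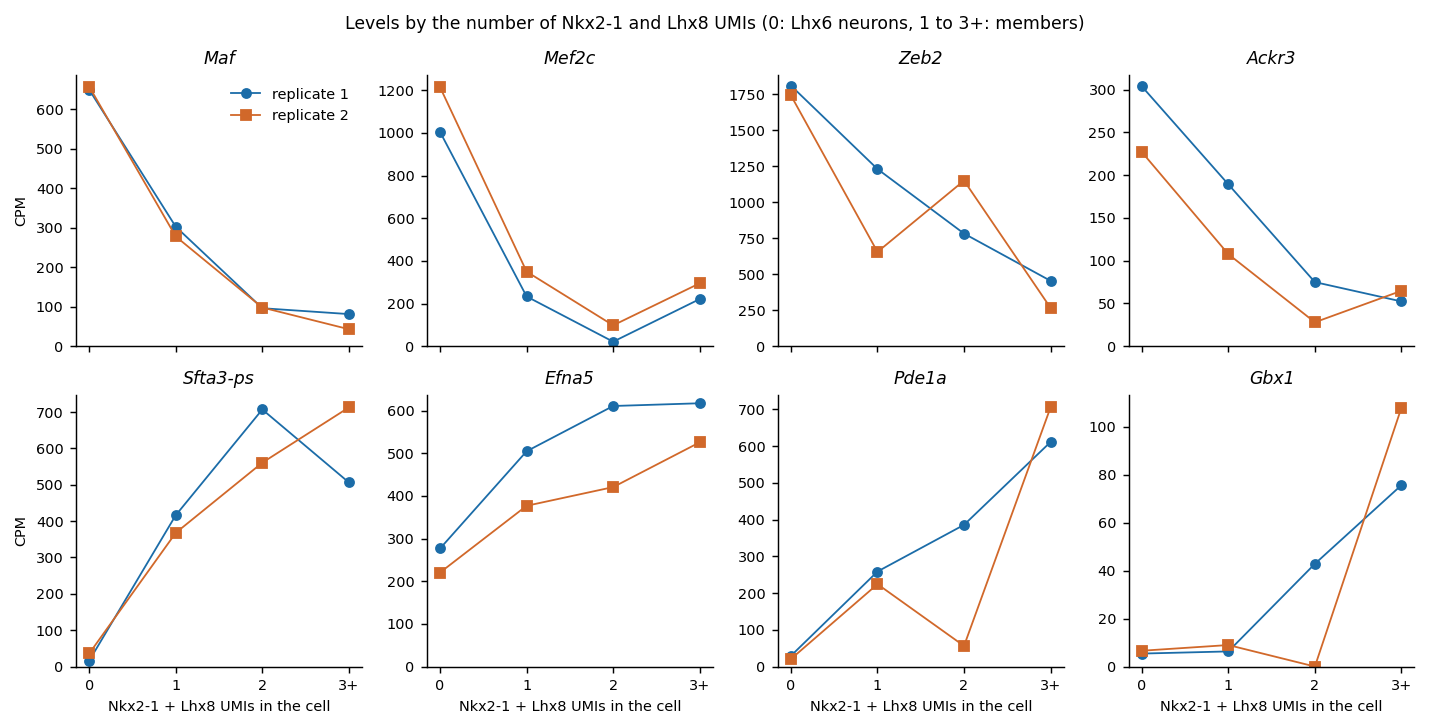
CPM of 8 genes by the number of *Nkx2-1* and *Lhx8* UMIs in the cell, with 0 for the *Lhx6* neurons and 1, 2 and 3 or more for the members, 1 line per replicate. *Maf* fell over the bins in both replicates and *Efna5* rose.

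UMIs of *Maf* or *Mef2c* and of *Crabp1*, *Gbx1* or *Zic1* were counted in the same members. Of 132 members, 71 held *Maf* or *Mef2c*, 43 held *Crabp1*, *Gbx1* or *Zic1*, 19 held both sets and 37 neither. In replicate 1 these numbers were 39, 23, 8 and 20 of 74, and in replicate 2 they were 32, 20, 11 and 17 of 58. The sets were chosen after values were seen and are given without a test, and no separation is read from them.

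Against the *Sst* neurons, the members held more of *Epha4*, *Robo1*, *Plxna4* and *Ccnd2* and less of *Npy*, *Grik1*, *Gria1* and *Maf*. Of 15413 genes, 149 were higher (0.967%) and 192 lower (1.25%), and the median over all genes was 0.04. List counts in this comparison are to be read beside these shares. The *Sst* neurons were few, at 39 and 44 cells. *Robo1* was at 1582 and 1626 CPM against 550 and 315 (log2 fold change 1.99 ± 0.20), *Plxna4*, a semaphorin co-receptor, at 701 and 619 against 156 and 120 (2.34 ± 0.25), and *Epha4* at 869 and 473 against 133 and 108 (2.53 ± 0.25, adjusted p = 8.4e-09). *Etv1* (2.41 ± 0.28) and *Sp9*, a zinc-finger factor of young GABAergic neurons (305 and 208 CPM against 44.5 and 74.5, 2.11 ± 0.31), were higher as well.

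Of 17 progenitor and early neuron genes, 5 were higher and none was lower, with a median of 0.69. *Ccnd2* was at 269 and 149 CPM against 5.56 and 33.1 (3.38 ± 0.45, adjusted p = 6.0e-06), and the intermediate filament gene *Vim* at 187 and 155 against 27.8 and 53.8 (2.06 ± 0.47). *Sox4*, *Sox11* and *Gadd45g* were the others, and each lost its call under at least 1 alternative. *Sox9*, a factor of progenitors and glia, was at 47.2 and 24.9 CPM against 0 and 0, which is at least 5.28-fold. It was found in 12 and 6 members. Of 9 glial genes tested, *Sox9* alone was called, and the median of the 9 was 2.78. The list of 10 summed to 66.1 and 106 CPM in the members against 16.7 and 12.4 in the *Sst* neurons. *Slc1a3* was found in 10 members, while *Aqp4*, *Hopx* and *Sox10* were at 0 in all of them.

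Lower genes included a neuropeptide and glutamate receptors. *Npy*, a neuropeptide of SST+ interneurons and of a striatal class, was at 432 and 292 CPM against 1312 and 1308 (-1.79 ± 0.21, adjusted p = 2.5e-07), with UMIs in 41 members. *Grik1* was at 68.5 and 56.0 CPM against 695 and 720 (-3.42 ± 0.29), *Gria1* at 335 and 302 against 2212 and 2836 (-2.92 ± 0.21) and *Sema3a*, a repulsive semaphorin, at 49.6 and 43.5 against 289 and 211 (-2.35 ± 0.34). Of 20 glutamate receptor genes, 7 were lower and none was higher, beside 1.25% and 0.967% of all genes, with a median of -0.69. Of 40 ion channel genes 5 were lower and none was higher, and of 30 synaptic organizers 6 were lower and 1 higher. At least 1 alternative ended the calls of *Grik2* and *Grid1*, of the channel genes *Scn3a*, *Cacna1c* and *Cacna2d3* and of the organizers *Nxph1*, *Lrrtm4*, *Tenm2*, *Tenm4* and *Nlgn1*, the last being the higher one. *Maf* (-1.75 ± 0.20), *Mef2c* (-1.89 ± 0.24) and *Satb1* (123 and 131 CPM against 300 and 402, -1.44 ± 0.25) were lower.

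The leading genes of this comparison were mostly at 0 in 1 of the groups. *Crabp1* was at least 11.1-fold, *Cpne4* at least 9.05-fold and *Cdc14a*, a cell cycle phosphatase, at least 6.22-fold higher in the members, and *S100a16*, *Egfr*, *Parm1*, *Atf5*, *Gm47664* and *Gm11290* followed. *Tac1*, the substance P precursor, was at least 34.8-fold lower in the members, with 64.4% of the *Sst* neurons' UMIs in 1 cell, and *Mkx* was at least 12.4-fold lower. *Dgkg* (-4.61 ± 0.56), *Thrb*, *Kcns3*, *Ephx4*, *Eya4*, *Lgals8*, *Gm13986* and *Gm28307* were the other lower genes. In cells under 5% mitochondrial UMIs, 11 of these 20 leading genes lost their calls and 1 was not tested, and *Crabp1* was among them (adjusted p = 0.068). DESeq2 called 5 of the 20 and gave 15 no adjusted p, so their calls could not be checked with it. *Pde1a*, which led the comparison with the *Lhx6* neurons, was at 539 and 45.5 CPM in the *Sst* neurons, so their libraries lay on both sides of the members.

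Against the *Foxp1*/*Ebf1* neurons, the members held more of *Sox6*, *Erbb4*, *Nxph1* and *Npy* and less of *Foxp2*, *Isl1* and *Meis2*. Of 15408 genes, 298 were higher (1.93%) and 322 lower (2.09%), with a median of -0.08. List counts here are likewise to be read beside these shares. *Sox6* was at 1985 and 1778 CPM against 125 and 113 (3.98 ± 0.18, adjusted p = 7.8e-18), *Erbb4* at 6971 and 6016 against 894 and 808 (2.93 ± 0.20), *Nxph1* at 1388 and 1567 against 165 and 243 (2.84 ± 0.21) and *Kcnc2*, a fast potassium channel, at 465 and 401 against 23.2 and 42.9 (3.65 ± 0.23). Of 29 regulators tested, 14 were higher and 5 lower, with a median of 0.76. The bHLH factor *Tcf4* (2521 and 2453 CPM against 582 and 606) was among the higher ones. *Maf* was higher too (168 and 137 CPM against 35.9 and 49.5, 1.82 ± 0.23), a call lost when at least 2 UMIs of *Nkx2-1* and *Lhx8* were required (0.76, adjusted p = 0.31).

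Of 8 striatal interneuron genes tested, 6 were higher and none was lower, with a median of 2.47. *Npy* was at 432 and 292 CPM against 26.1 and 15.9 (4.16 ± 0.28, adjusted p = 3.4e-13) and was found in 22 and 19 members. *Sfta3-ps* (6.68 ± 0.30), *Galnt14*, a glycosyltransferase (94.4 and 103 CPM against 2.82 and 4.20, 4.72 ± 0.36), *Pde1a*, *Gbx1*, *Gm45025*, *4732419C18Rik*, *Ndst4* and *Nwd2* completed the leading higher genes. Of *Nwd2*, 37.2% of the UMIs in the members came from 1 cell. *Kit* and *Nos1*, which mark striatal interneuron classes, lost their calls in cells under 5% mitochondrial UMIs.

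The genes of the striatal projection lineage were low in the members. Of 12 tested, 8 were lower and none was higher, with a median of -4.76. *Zfp503* was at 2.36 and 0 CPM against 147 and 131 (-6.66 ± 0.58), *Foxp2* at 28.3 and 28.0 against 1118 and 879 (-5.16 ± 0.31), *Isl1* at 7.08 and 12.4 against 239 and 239 (-4.67 ± 0.41) and *Drd2*, a dopamine receptor of the indirect pathway, at 0 and 6.22 against 78.2 and 77.9 (-4.84 ± 0.85). *Meis2* was at 201 and 146 CPM against 3895 and 3656 (-4.45 ± 0.21) and *Slit3*, a ligand of the ROBO receptors, at 54.3 and 3.11 against 444 and 498 (-3.90 ± 0.33). The other leading lower genes, at 0 in the members, were *Gnrh1*, with 99% of its UMIs in 1 *Foxp1*/*Ebf1* cell, *Rgs5*, *Gm12158*, *2700069I18Rik*, *Gm39244*, *Aldh1a3*, *Ndufa4l2* and *Eva1b*. Of these, *Rgs5*, *Ndufa4l2* and *Eva1b* lost their calls in cells under 5% mitochondrial UMIs, *Gm39244* there too (adjusted p = 0.051), and *Gnrh1* without the replicate block (adjusted p = 0.074). DESeq2 ended the calls of *Drd2* (adjusted p = 0.11), *Ndst4* and *Nwd2*.

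*Epha4* did not separate the members from the *Foxp1*/*Ebf1* neurons. These held 575 and 507 CPM, and the members' libraries lay on both sides, at 869 and 473. *Robo1* and *Dcc*, both called higher in the members than in the *Lhx6* neurons, were lower than in the *Foxp1*/*Ebf1* neurons (*Robo1* at 2637 and 2349 CPM there, -0.64 ± 0.17, adjusted p = 0.018, and *Dcc* at 2868 and 2249 CPM, -0.74 ± 0.17, adjusted p = 0.0058). Both calls were lost without the replicate block (adjusted p = 0.11 and 0.062) and with at least 2 UMIs of *Nkx2-1* and *Lhx8* (adjusted p = 0.30 and 0.054). Against the *Sst* neurons, *Dcc* was called (0.88) but lost its call after removal of the highest doublet scores (0.39, adjusted p = 0.43) and with only the compared groups in the fit (0.81, adjusted p = 0.36). *Efna5* was higher in the members than in all 3 groups, with log2 fold changes of 1.01 ± 0.16, 1.55 ± 0.22 and 0.92 ± 0.15.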

How the data were processed

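The authors dissociated E16.5 cortex with papain and made 10x Genomics 3' libraries. The deposited matrices hold raw UMI counts per gene and cell, from Cell Ranger 7.1.0 per the file headers (7.0.0 per the submitters' processing notes), on mm10. Here cells were gated on UMI counts, and UMIs were summed per library and group. All 16 sums (8 groups in 2 libraries) entered 1 fit in edgeR 4.0.16 (R 4.3.3) with TMM scaling and the library as a block, since the groups of a library share it. Genes with at least 10 UMIs in 2 sums were tested, and genes of the gates were left out before Benjamini-Hochberg adjustment. Members with *Lhx8* alone, with *Nkx2-1* alone and with both entered 1 fit of their own, as separate sums per library. Named genes were the 10 with the largest fitted change in each direction among called genes of at least 20 CPM in the higher group, plus fixed marker genes and called genes of fixed lists. Members and lists were chosen with earlier results of these data known. The script was tested on simulated data. The libraries are called replicates, but nothing states separate litters, so p-values measure only the spread between these samples. Doublets were not removed, and Scrublet served as an alternative, as did DESeq2 1.42.0. Promoters and positions came from RefSeq (GRCm38.p6). Intervals cover counting error only. Some called genes are counted in their lists but not reported here.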

Additional observations from a re-analysis of the deposited data

How the results depend on the processing

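The number of genes called against the *Lhx6* neurons was 441, and stayed between 337 and 565 under all alternatives but cells under 5% mitochondrial UMIs, which gave 265. That setting gave 220 calls against the *Sst* neurons (341 in the full comparison) and 412 against the *Foxp1*/*Ebf1* neurons (620), and its higher genes against the *Lhx6* neurons numbered 94 (192), its lower genes against the *Sst* neurons 111 (192) and its higher genes against the *Foxp1*/*Ebf1* neurons 174 (298). The restriction to cells under 5% mitochondrial UMIs left 44 and 36 members of 74 and 58, and a requirement of at least 2 UMIs of *Nkx2-1* and *Lhx8* left 44 and 35, so both hold fewer cells. Without a filter on low counts, the higher genes against the *Sst* neurons rose from 149 to 226. Without the replicate block, the calls were 337, 258 and 527, and all 337 against the *Lhx6* neurons were among the 441. Between members with *Lhx8* alone and *Nkx2-1* alone, the 2 calls became 15 under DESeq2, 94 without a filter on low counts, 18 without the replicate block, 0 with at least 2 UMIs, 17 in cells of 3000 to 15000 UMIs, 6 under 5% mitochondrial UMIs and 19 after removal of the highest Scrublet scores; the cause was not tested. Direction turned for *Nrg1* (-0.31) and *Epha6* (-1.29) against the *Lhx6* neurons under 5% mitochondrial UMIs, for *Epha5* against the *Foxp1*/*Ebf1* neurons with at least 2 UMIs (-0.29) and for *Nefm* against them without replicate 2 (-0.34, against 2.94 without replicate 1, with no test). With 1 library left there was no test. Of the fold changes of single genes, 71 moved by more than 1 SD without replicate 1 and 75 without replicate 2, while 239 and 234 stayed within it. That SD was taken from the ratios of the same 2 libraries, so a value tends to stay within it however far they differ. These counts therefore do not measure how well the libraries match. The depth of the member sums limits what can be seen in genes of few UMIs.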
